A study of Homo sapiens with 6 samples.

Results

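The genes described here are 10 of the 26364 genes in the table: 8 HLA class II chains, the invariant chain gene CD74 and the class II transactivator gene CIITA. They were chosen by gene symbol, and all 10 have an adjusted p. RNA was taken from REH, an established line grown from a human B-precursor ALL (acute lymphoblastic leukaemia). For 3 libraries the cells had been transduced by lentivirus with a hairpin RNA against STAT3 (shSTAT3), and in 3 with a scramble hairpin. All 6 cultures went through 3 days of puromycin selection and removal of dead cells before extraction, and the replicates came from independent experiments. A single hairpin label is given, so other effects of that hairpin cannot be told apart from an effect of STAT3, and a single line was used, so the values describe REH. The comparison asks which transcripts differ when STAT3 is reduced.

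HLA class II molecules are heterodimers of an alpha and a beta chain that show peptides from endosomes to CD4+ T cells. HLA-DP, HLA-DQ and HLA-DR bind peptides, CD74 fills their groove on the way to the endosome, HLA-DM exchanges the CD74 fragment for peptide, and HLA-DO restrains HLA-DM. CIITA is a coactivator that does not bind DNA itself. It is recruited by the RFX, NF-Y and CREB factors that sit on the X and Y boxes of class II promoters, and B-lineage cells make it constitutively.

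Transcripts of antigen presentation by class II were higher in the shSTAT3 cells. Of the 10 genes 9 rose, none fell and 1, CIITA itself, did not pass, at a DESeq2 adjusted p under 0.05. Of the 12061 tested genes in the authors' deposited table, 44.5% were called, 21.3% as higher and 23.2% as lower. Among the 4354 tested genes with a mean within the range of the 10, 56.1% were called and 28.8% were higher. The median log2 fold change of the 10 was 0.58, against 0.0027 for all tested genes and 0.02 for those of like mean. Of the 10 genes 6 stood in the top decile of all tested genes by fold change. At least a 1.5-fold rise was reached by 5 of the 10, against 6.96% of all tested genes and 4.43% of those of like mean.

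The direction was read from STAT3, which stood at 29.8% of scramble with a negative fold change (−1.75 in log2 units of the authors' deposited table, worked-out SE 0.09). Negative values were therefore taken as lower in shSTAT3, and the fall of STAT3 is no independent check of the labels. The table gives 1 mean over all 6 libraries, so the values below are that mean and the levels of each group that follow from it and the fold change. Whether the libraries of the groups overlap was not tested. These are bulk samples, in which more cells that express a gene and more RNA per cell cannot be told apart.

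**Figure D1:**
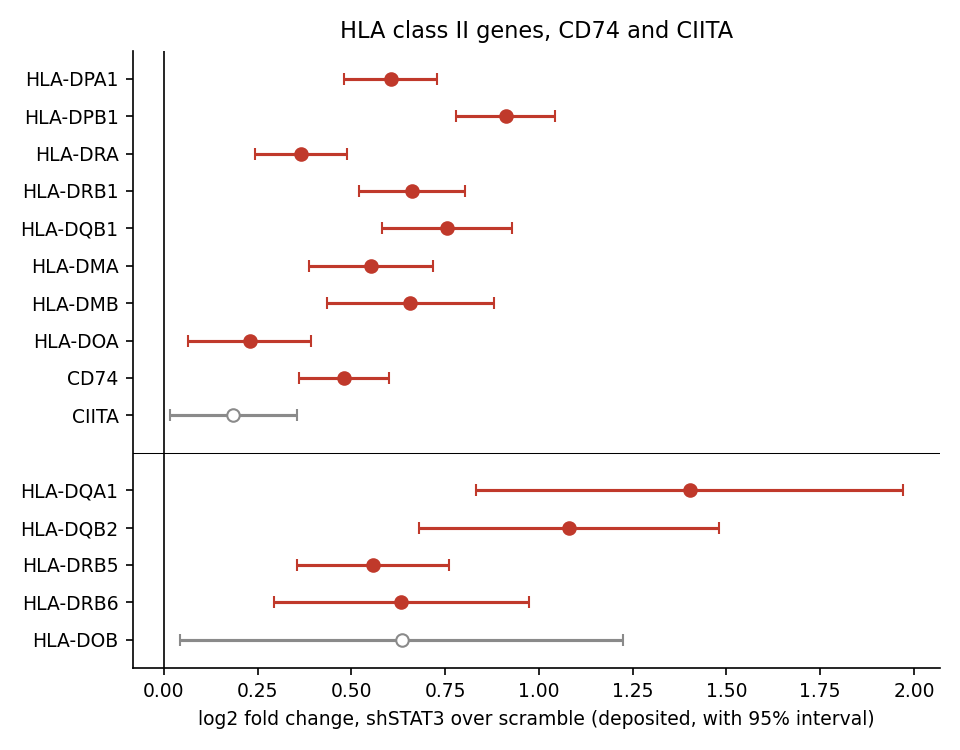
Log2 fold change of shSTAT3 over scramble for the 10 genes (above the line) and for other tested class II loci (below it). Points are the values of the authors' deposited table, bars are 95% intervals, and filled red points have an adjusted p under 0.05. All points lie above 0, and the open points of CIITA and HLA-DOB did not pass.

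The promoters were searched for the letters of the X and Y boxes. RefSeq windows of 250 bases before to 50 after the start (GRCh38.p14) were found for 8 of the 10 genes, with HLA-DRA and CIITA unmatched. Each was searched on the gene's strand for an X-box core, which is GNNAC and, after any 2 further bases, ATG. The core had to be followed after 15 to 30 bases by ATTGG, the inverted CCAAT of the Y box. The pair stood in the windows of HLA-DRB1, HLA-DQB1 and HLA-DMA, and in 24 of all 35116 windows (0.0683%). The stretches below run 5′ to 3′ on the gene's strand and are shown so that the X and Y boxes can be compared. By this exact pattern the first 3 hold the pair and the other 3 a single element. Capitals mark the X core and ATTGG where they were found.
HLA-DRB1: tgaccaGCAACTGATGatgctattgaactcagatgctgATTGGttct
HLA-DQB1: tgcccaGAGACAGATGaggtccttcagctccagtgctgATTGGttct
HLA-DMA: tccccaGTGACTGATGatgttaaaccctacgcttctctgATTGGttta
HLA-DPB1: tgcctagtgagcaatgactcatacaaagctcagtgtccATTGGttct
HLA-DOA: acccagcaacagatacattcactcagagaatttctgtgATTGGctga
HLA-DMB: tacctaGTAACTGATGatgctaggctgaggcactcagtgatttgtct

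These stretches lie at chr6:32589886-32589932 for HLA-DRB1, chr6:32666737-32666783 for HLA-DQB1 and chr6:32953168-32953215 for HLA-DMA, all on the minus strand. The stretch of HLA-DPB1 is chr6:33075853-33075899 on the plus strand. Those of HLA-DOA and HLA-DMB are chr6:33009650-33009696 and chr6:32941075-32941121 on the minus strand. The X core and ATTGG were 22 bases apart in HLA-DRB1 and HLA-DQB1 and 23 in HLA-DMA. The Y-box letters began 46 bases before the start of HLA-DRB1, 88 before that of HLA-DQB1 and 79 before that of HLA-DMA. HLA-DPB1 and HLA-DOA held ATTGG without that core, and HLA-DMB the core without ATTGG. By itself ATTGG stood in 20.3% of all windows and the core alone in 3.68%. The windows of HLA-DPA1 and CD74 held neither. The interferon and STAT element TTCNNNGAA, which reads the same on both strands, was in none of the 8 genes' windows and in 7.66% of all windows. A match in letters is a description, not a binding site. A window without a match can still hold an X or Y box whose letters differ from this pattern.

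HLA-DPB1, the beta chain of HLA-DP, changed most of the 10. It lies on chromosome 6 from 33075926 to 33087201 (GRCh38, GENCODE 29, plus strand). Its mean was 4159 normalized counts in the authors' deposited table, which with the fold change corresponds to 2887 in scramble and 5431 in shSTAT3. The rise was 1.88-fold, from the log2 change in the authors' deposited table (0.91, 95% interval 0.78 to 1.04, DESeq2 adjusted p = 1.73e-39). By fold change it ranked 266 of all tested genes, and by p 54. The partner chain HLA-DPA1, on the minus strand from 33064569 to 33080775, had a mean of 6448. It rose 1.52-fold, from the log2 change in the authors' deposited table (0.60, 95% interval 0.48 to 0.73, DESeq2 adjusted p = 6.69e-20). The intervals of these partners did not overlap. Their gene models overlap on opposite strands in 31 exon bases, 1.82% of HLA-DPA1 and 1.99% of HLA-DPB1, and reads there cannot be assigned without strand.

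HLA-DR is the most abundant class II molecule of most B-lineage cells. HLA-DRA, its alpha chain, lies on chromosome 6 from 32439842 to 32445046. It had a mean of 16953 and rose 1.29-fold, from the log2 change in the authors' deposited table (0.37, 95% interval 0.24 to 0.49, DESeq2 adjusted p = 5.06e-08). The corresponding levels were 14818 in scramble and 19089 in shSTAT3. HLA-DRB1, the beta chain, lies from 32578769 to 32589848 and had a mean of 2248. It rose 1.58-fold, from the log2 change in the authors' deposited table (0.66, 95% interval 0.52 to 0.80, DESeq2 adjusted p = 1.62e-18). As for HLA-DP, the beta chain had the larger fold change, with intervals that did not overlap. HLA-DRB1 is uncertain, because reads can be split with its near copies HLA-DRB5 and the pseudogene HLA-DRB6, and alleles that differ from the reference can lose reads. Neither was measured here.

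HLA-DQB1, the beta chain of HLA-DQ, lies from 32659467 to 32668383 and had a mean of 913. It rose 1.69-fold, from the log2 change in the authors' deposited table (0.75, 95% interval 0.58 to 0.93, DESeq2 adjusted p = 4.86e-16). An antisense gene, HLA-DQB1-AS1, covers 9.93% of its exon bases. Its partner HLA-DQA1, which is not among the 10, had a mean of only 34.5 and a fold change of 1.40 (log2) as given by the authors' deposited table (95% interval 0.83 to 1.97, DESeq2 adjusted p = 9.04e-06). In this pair the alpha chain had the larger value, with intervals that overlapped. Over the 5 alpha and beta pairs of class II, the beta chain had the larger fold change in 4, and the intervals overlapped in 3.

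The peptide editor HLA-DM rose in both chains. HLA-DMA, from 32948613 to 32969094, had a mean of 1330. It rose 1.47-fold, from the log2 change in the authors' deposited table (0.55, SE 0.08, DESeq2 adjusted p = 6.65e-10). HLA-DMB, from 32934629 to 32941070, had a mean of 658. It rose 1.58-fold, from the log2 change in the authors' deposited table (0.66, SE 0.11, DESeq2 adjusted p = 6.47e-08). HLA-DOA, the alpha chain of the HLA-DM inhibitor HLA-DO, changed least of the 9 that rose. It lies from 33004178 to 33009612 and had a mean of 2417. It rose 1.17-fold, from the log2 change in the authors' deposited table (0.23, 95% interval 0.07 to 0.39, DESeq2 adjusted p = 0.0164). Its interval did not overlap those of HLA-DMB, HLA-DPA1, HLA-DRB1, HLA-DQB1 or HLA-DPB1. Its call was lost at a threshold of 0.01 and with the Benjamini-Yekutieli adjustment of the DESeq2 values (adjusted p = 0.164). The model AL645941.2 shares 31.4% of the exon bases of HLA-DMB and 15.5% of those of HLA-DMA, so these counts depend on the annotation used.

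CD74, on chromosome 5 from 150401637 to 150412929, was the most abundant of the 10. Its mean was 26666 and it rose 1.39-fold, from the log2 change in the authors' deposited table (0.48, 95% interval 0.36 to 0.60, DESeq2 adjusted p = 6.35e-14). The corresponding levels were 22270 in scramble and 31062 in shSTAT3. CD74 lies outside the HLA region, and its rise falls between those of HLA-DRA and HLA-DMA.

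CIITA, on chromosome 16 from 10866222 to 10943021, did not pass. Its mean was 2318 and its change 0.19 in log2 units, per the authors' deposited table (95% interval 0.02 to 0.36, p = 0.0322, DESeq2 adjusted p = 0.0684). The interval leaves room for a rise of 0.36 on the log2 scale. That bound is less than the estimate of each of the 8 genes other than HLA-DOA, but only just for HLA-DRA (0.37). The intervals of HLA-DRA (0.24 to 0.49) and HLA-DOA (0.07 to 0.39) overlapped that of CIITA. Whether CIITA rose less than HLA-DRA or HLA-DOA was not tested. CIITA passed at an adjusted p under 0.10. Of its exon bases 19.3% are shared with DEXI and AC133065.3. DEXI, named after its value was seen, rose by 0.78 (log2 units of the authors' deposited table), and the part of the overlap in the value of CIITA was not tested.

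**Figure D2:**
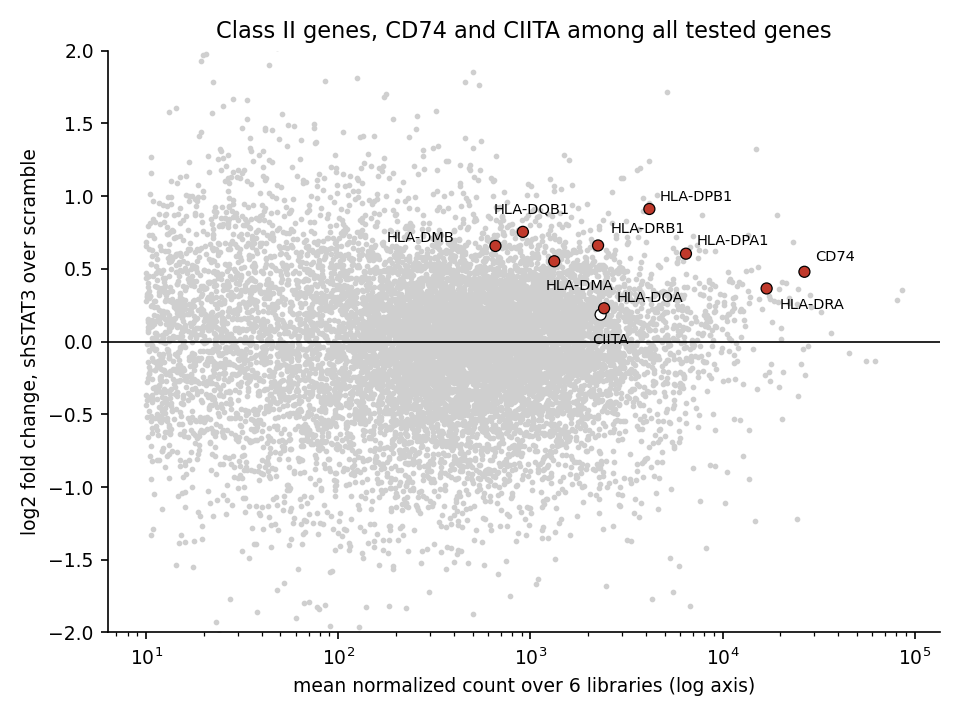
Log2 fold change of shSTAT3 over scramble against the mean normalized count (log axis) for all tested genes in grey, with the 10 genes marked (red, called, open, CIITA). The vertical axis ends at 2 in both directions, which leaves out 14 genes. The 10 have means between 658 and 26666 and all lie above 0.

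Summed over the 10 genes, the mean was 64110 normalized counts, 0.558% of all normalized counts in the table. HLA-DRA and CD74 made up 68.0% of that sum. The sum of the levels that follow from mean and fold change was 53496 in scramble and 74724 in shSTAT3, which is 39.7% higher. This ratio lies below the median fold change of the 10 because the 2 most abundant genes rose less than most others. Across the 10 genes, Spearman's rho of mean and fold change was −0.35, as a description over genes that share their libraries.

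Per kb of exon, the level of HLA-DRA was 13245 normalized counts and the highest of the class II chains. HLA-DPA1 followed at 3784 per kb, HLA-DPB1 at 2666 and HLA-DRB1 at 1829. HLA-DMA stood at 1185 per kb, HLA-DOA at 693, HLA-DQB1 at 512 and HLA-DMB at 471. Partner chains were near each other in HLA-DP, where the level per kb of the alpha chain was 1.42 times that of the beta chain, and in HLA-DM, where it was 2.52 times. HLA-DRA stood 7.24 times above HLA-DRB1 per kb, and HLA-DOA 38.6 times above HLA-DOB, whose exons overlap AL669918.1 in 39.2% of their bases. HLA-DQ was the exception, with the beta chain HLA-DQB1 at 26.1 times the level per kb of HLA-DQA1. Reads of highly polymorphic chains depend on how the line's alleles match the reference, and the part of that in these ratios was not tested.

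**Figure D3:**
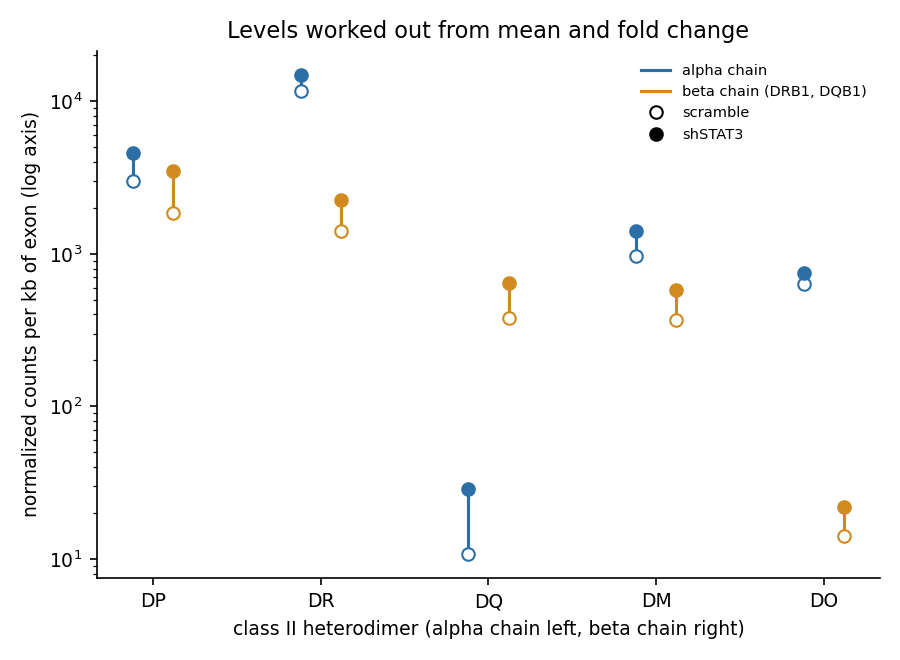
Normalized counts per kb of exon (log axis) of the alpha and beta chains of the 5 class II heterodimers, as worked out from the mean and the fold change. Open points are scramble and filled points shSTAT3. Partner chains lie close in DP and DM and far apart in DQ and DO.

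Other class II loci moved the same way as far as they could be tested. Of 9 such loci listed, 5 were tested, 4 rose, none fell and HLA-DOB did not pass, with a median log2 fold change of 0.63. HLA-DQB2 rose by 1.08 on the log2 scale from a mean of 99.0, HLA-DRB5 by 0.56 from 566 and the pseudogene HLA-DRB6 by 0.63 from 133 in the authors' deposited table. HLA-DOB, the beta chain of HLA-DO, was at 0.63 with a mean of 27.4 in the authors' deposited table (95% interval 0.04 to 1.23, DESeq2 adjusted p = 0.0747). HLA-DQA2 and HLA-DPB2 had means of 5.48 and 1.16 and no adjusted p in the authors' deposited table, and HLA-DRB3 and HLA-DRB4 were listed at 0. HLA-DRB5, HLA-DRB6 and HLA-DQB2 resemble HLA-DRB1 and HLA-DQB1 in sequence, and whether reads were split between them was not tested.

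The rise was less even among the other genes of the region. Between the start of HLA-DRA and the end of HLA-DPB2, from 32439842 to 33129084 on chromosome 6, 13 class II genes were tested, of which 12 rose, and the median log2 fold change was 0.63. The 6 other tested genes there had a median of 0.19, and 3 of them rose. Those 3 were the peptide transporter genes TAP1 and TAP2, which serve class I, and the bromodomain gene BRD2, at 0.54, 0.24 and 0.27 (log2 units of the authors' deposited table). The authors' deposited table lists the proteasome genes PSMB8 and PSMB9 at −0.16 and 0.15, neither of which passed. Within 500 kb before the region 6 of 14 tested genes rose and 2 fell, and within 500 kb after it 9 of 20 rose and 3 fell. Over all tested genes 21.3% rose and 23.2% fell. The bounds of the region and the other genes named in it were chosen after their values were seen, and the difference between class II and other genes was not tested.

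**Figure D4:**
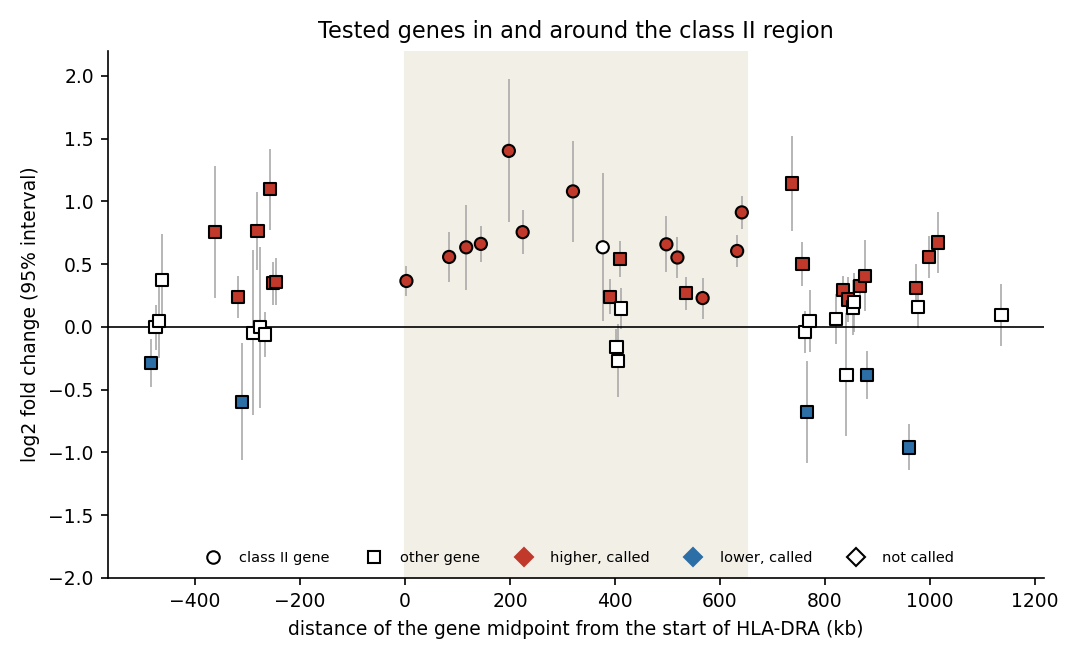
Log2 fold change with 95% intervals of tested genes by the distance of their midpoint from the start of HLA-DRA in kb, with the class II region shaded. Circles are class II genes and squares other genes, red marks called rises and blue called falls. Class II genes lie above 0 throughout, while squares lie on both sides.

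No gene of the factors that bind class II promoters was called as higher. Of 8 tested, 2 fell and 6 did not pass, with a median log2 fold change of −0.10. Over all tested genes 21.3% were higher and 23.2% lower, and whether these 8 differ from those shares was not tested. The NF-Y subunit genes NFYB and NFYC, whose products bind the Y box, fell by 0.50 and 0.26 (log2 units of the authors' deposited table) (DESeq2 adjusted p = 0.000113 and 0.0158). The third subunit, NFYA, was at 0.19 in the authors' deposited table (DESeq2 adjusted p = 0.0673). RFX5, RFXANK and RFXAP, which form the X-box factor, stood at 0.10, 0.01 and −0.20 in the authors' deposited table (DESeq2 adjusted p = 0.270, 0.943 and 0.262). CREB1 and ATF1, which bind the X2 element, stood at −0.07 and −0.14 in the authors' deposited table.

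Regulators of CIITA or of class II transcription moved both ways, with 6 of 25 tested genes higher, 6 lower and a median of 0.0094. These counts are near the shares over all tested genes, 21.3% higher and 23.2% lower, and so do not mark the list out. The chromatin remodelling ATPase gene SMARCA4, the deacetylase gene HDAC2 and the acetyltransferase gene KAT2B fell by 0.56, 0.62 and 0.86 (log2 units of the authors' deposited table). The acetyltransferase gene EP300 rose by 0.49 in the authors' deposited table (DESeq2 adjusted p = 5.52e-10). PAX5, the B-lineage factor, named after its value was seen, rose by 0.32 from a mean of 10140 in the authors' deposited table. IRF1, which acts on the interferon-inducible promoter of CIITA, was at 0.10 in the authors' deposited table (DESeq2 adjusted p = 0.261). PRDM1, a repressor of CIITA in plasma cells, was at 0.32 with a mean of only 27.3 in the authors' deposited table (DESeq2 adjusted p = 0.425). The authors' deposited table has SPI1 at −0.19 and BACH2 at −0.25, neither of which passed.

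Of 8 tested genes of interferon gamma signalling 2 rose and none fell, with a median of 0.09. Over all tested genes 21.3% rose and 23.2% fell. The kinase gene JAK1 and the phosphatase gene PTPN2, which dephosphorylates JAK and STAT proteins, rose by 0.36 and 0.33 (log2 units of the authors' deposited table). The receptor chains IFNGR1 and IFNGR2 were at 0.10 and −0.14 and JAK2 at 0.07 in the authors' deposited table, none of which passed. The interferon target GBP2 had a mean of 6.71 and no adjusted p, and IFNG itself was listed at 0, in the authors' deposited table.

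The endosomal machinery that prepares class II for peptide did not move as a group, with 2 of 11 tested genes higher and 3 lower (median −0.17). The shares over all tested genes were 21.3% higher and 23.2% lower. CTSS, the cathepsin that trims CD74 in antigen-presenting cells, fell by 0.90 (log2 units of the authors' deposited table) (95% interval −1.14 to −0.67, DESeq2 adjusted p = 8.3e-13). The cathepsin genes CTSD and CTSB rose by 0.79 and 0.45 in the authors' deposited table, and the cathepsin inhibitor gene CST3 fell by 0.75. Of 11 tested genes of class II traffic and surface partners 5 rose and 3 fell (median 0.13), to be read beside the same shares. The tetraspanin gene CD37 and TMEM106A rose by 1.19 and 1.21, and the ubiquitin ligase gene MARCH8, whose product takes class II off the surface, by 0.38 in the authors' deposited table. AP2M1, of the clathrin adaptor, rose by 0.37 in the authors' deposited table. The 3 that fell were the tetraspanin genes CD9 and CD82, by 1.25 and 0.62, and the clathrin gene CLTC, by 0.22 in the authors' deposited table. These 3 were named after their values were seen.

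Among 10 tested genes of costimulatory and accessory molecules there were 6 rises and 1 fall, with a median of 0.41. Over all tested genes 21.3% rose and 23.2% fell. The rises include the inhibitory ligand gene CD274, at 0.99 (log2) with a mean of only 13.5, so they are not all of costimulation. The ICOS ligand gene ICOSLG rose by 1.07 (log2 units of the authors' deposited table) (DESeq2 adjusted p = 3.14e-21). CD58, ICAM1 and CD70, all ligands of T-cell surface molecules, rose by 0.52, 0.54 and 0.40 in the authors' deposited table. TNFSF4 fell by 0.24, and CD40 was at 0.02 and did not pass, in the authors' deposited table. CD80 and CD86 had means of 0.638 and 4.49 and no adjusted p. CD274, TNFSF4, CD40, CD80 and CD86 were named after their values were seen. Among 19 tested genes of class I presentation there were 13 rises and no fall, with a median of 0.32. HLA-C, HLA-B and HLA-E rose by 0.57, 0.51 and 0.47 in the authors' deposited table, values within the range of the class II genes.

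**Figure D5:**
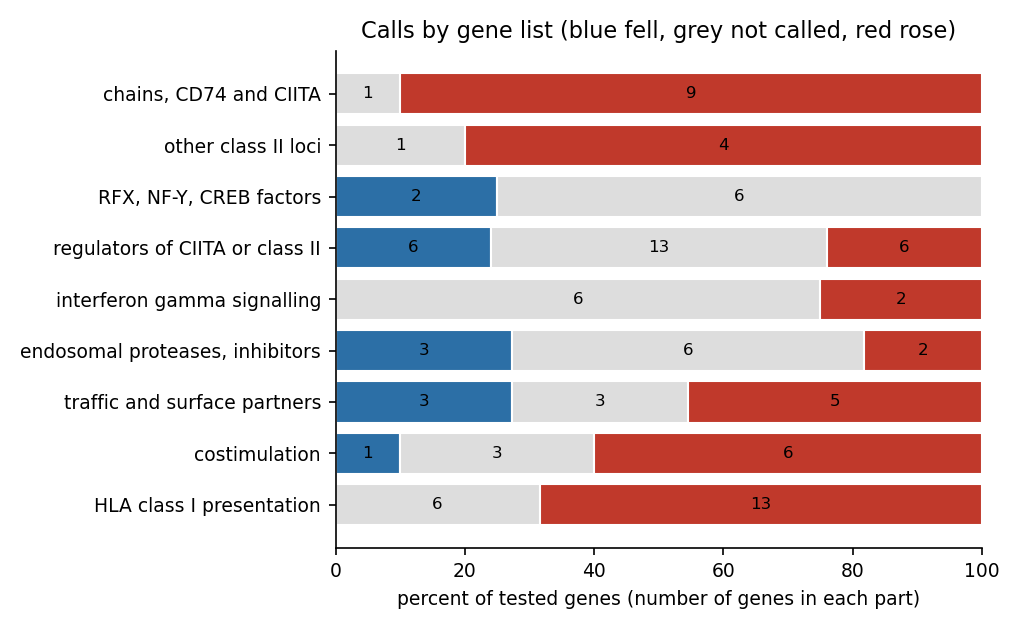
Percent of the tested genes of each list that fell (blue), were not called (grey) or rose (red) at an adjusted p under 0.05, with the number of genes printed in each part. The class II rows hold no gene that fell, and neither do those of class I presentation and interferon gamma signalling. The promoter-factor row holds none that rose.

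Markers bear on which cells the RNA came from. Of 18 B-cell precursor markers 17 were tested, 2 of which rose and 6 fell, with a median log2 fold change of −0.09. Over all tested genes 21.3% rose and 23.2% fell. CD79A, of the B-cell receptor, and PAX5 rose, CD79A by 0.63 in log2 units of the authors' deposited table. The 6 that fell included the recombinase genes RAG2 and RAG1, DNTT, which adds bases at recombined joints, and IGLL1, of the surrogate light chain. These fell by 0.52, 0.21, 0.23 and 0.22 in the authors' deposited table. CD22 also fell, by 0.29 in the authors' deposited table. VPREB1 alone was listed at 0. Of 7 mature B-cell markers found, TNFRSF13C, the BAFF receptor gene, was tested and rose by 0.90 from a mean of 192 in the authors' deposited table (DESeq2 adjusted p = 1.02e-07). The summed level of the 7 was 138 in scramble and 255 in shSTAT3. Nearly all of their summed mean of 196 was TNFRSF13C, so these levels describe that gene and not the set. MS4A1, which encodes CD20, had a mean of 0.516 and CR2 was listed at 0. RAG1, DNTT and IGLL1 were named after their values were seen. Of 22 markers of monocytes, macrophages and dendritic cells, which also make class II, 5 were tested. ITGAM rose by 0.33 and CSF1R fell by 0.81 in the authors' deposited table (DESeq2 adjusted p = 0.0217 and 0.00101). MPO, FLT3 and ITGAM held 4311 of their summed mean of 4504, and the other 19 summed to 193 normalized counts, with CLEC10A at 0. The summed level of those 19 was 217 in scramble and 169 in shSTAT3. CSF1R made up that difference, at 113 and 64.7, and the 18 others summed to 104 in each group. At their low means the fold changes behind these levels are shrunken toward 0. The equal sums therefore cannot show whether these markers differed between the groups. LYZ, S100A8 and S100A9, which are among those 18, have a fold change and no p. DESeq2 gives no p where it flags an outlying count, and whether a single library carried their counts was not tested. Of 13 T-cell and NK-cell markers found, 5 were listed at 0 (CD3D, CD3G, CD5, CD7 and CD8B), and the summed mean of all 13 was 36.3. The part of these markers in the rise of class II was not tested. The means of all genes summed to 1.15e+07 normalized counts, and the standard errors of the 10 genes lay between 0.06 and 0.11 on the log2 scale.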

How the data were processed

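RNA from 3 scramble and 3 shSTAT3 cultures was made into TruSeq RNA v2 libraries, per the labels' protocols. Per the submitters' processing notes, the authors used DESeq2, featureCounts, Bowtie2, Trimmomatic, Picard and bcl2fastq 2.19 with hg38, in an order and with settings not listed. For annotation, strand and formula the sources used here state nothing. The deposited mean is a normalized signal, read counts divided by size factors and averaged over all libraries by the authors, going by the name baseMean in the file headers. The fold change is on the log2 scale, and the p-value and adjusted p are the authors', per the file headers. Genes with an adjusted p are called tested.

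Changes were called where the authors' DESeq2 adjusted p, as deposited, was under 0.05, since the table holds no value per library and no model could be fitted. The Benjamini-Hochberg adjustment recomputed over the tested genes came within 2.87e-07 of the deposited values. Standard errors were recovered as the fold change over the normal quantile that its p implies, and 95% intervals follow from it. Group levels were worked out from the mean and fold change with 3 libraries a group. Genes with means near 0 have fold changes close to 0 with small errors, as CD3E has (mean 0.147, log2 change −0.06, SE 0.09). Fold changes of this table were therefore taken as shrunken toward 0, and so then are the intervals and levels, most of all at low means. Levels between genes were compared per kb of exon in GENCODE 29 basic models. Promoters are RefSeq windows on GRCh38.p14. Members, gene lists and motifs were chosen with earlier results of these data known. The genes named are all members and, of each list, up to 4 called genes with the smallest adjusted p. Genes not called are also named for the other class II loci, promoter factors, regulators and interferon gamma signalling, of which some are not reported here. Other thresholds, adjustments and filters were tried as alternatives. Steps were tested on simulated data. Calculations ran on Python 3.11.15 with scipy 1.17.1, pandas 2.3.3, matplotlib 3.10.9 and numpy 2.4.6.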

Additional observations from a re-analysis of the deposited data

How the results depend on the processing

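No paired analysis was possible because the table holds no value per library, and leaving out a replicate or using another normalization could not be done for the same reason. The count of class II genes called was 9 as reported and between 8 and 10 with another threshold, adjustment or filter on low means. It was 5 with a fold of at least 1.5, where the genes called over the whole table went from 5369 to 2091, as that rule adds a condition. HLA-DOA was called or not depending on the adjustment, with adjusted p between 0.0164 and 0.164, and CIITA stayed above 0.05, between 0.0684 and 0.682. The median of the 10 was 0.58 with or without the median of all genes removed. The motif pair stood in the same number of class II windows, 3, with gaps of 10 to 40 bases and on either strand, against 37 and 42 of all windows. Depth per library is unknown.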

Other observations

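The promoter pair of X core and ATTGG also occurred outside class II, and 7 such genes were tested. Of these 3 rose, 1 fell and 3 did not pass, with a median log2 fold change of 0.31. Over all tested genes 21.3% rose and 23.2% fell. MR1, a class I-like molecule that presents vitamin B metabolites, rose by 0.56 (log2 units of the authors' deposited table). The other rises were those of TUSC2, by 0.55, and MRPS18A, by 0.31, and the RecQ helicase gene BLM fell by 0.96. HCP5, a noncoding gene of the HLA region, was at 0.51 in the authors' deposited table (DESeq2 adjusted p = 0.0901). These genes were named after their values were seen.

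The nearest tested genes of CD74 and CIITA were also named after their values were seen. Beside CD74, the nucleolar gene TCOF1 fell by 0.75 on the log2 scale and the ribosomal protein gene RPS14 rose by 0.40, per the authors' deposited table. NDST1 did not pass, and SYNPO fell by 1.39, per the authors' deposited table. Beside CIITA, DEXI, which overlaps it, rose by 0.78 and EMP2 fell by 0.81 in the authors' deposited table (DESeq2 adjusted p = 2.13e-06 and 0.0120). CLEC16A and NUBP1 did not pass, with values of 0.15 and −0.06 in the authors' deposited table (DESeq2 adjusted p = 0.156 and 0.741).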
